A study of Homo sapiens with 17 samples.

Results

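The 7 genes described here belong to the p53 pathway and were taken by symbol: MDM2, MDM4, PPM1D, CDKN1A, AEN, TP53INP1 and TP53INP2. All 7 were found among the 19222 genes with reads in the 1 h experiment, and 6 of them were listed in the 2 h experiment, where TP53INP2 was not listed. The study used HEK-293T cells, a human embryonic kidney line. No gene knockout or knockdown is named for the libraries described here. Emetine, an alkaloid that blocks ribosome translocation, was used to ask how inhibition of translation elongation changes mRNA synthesis and decay. For 1 h, cells received 500 µM 4-thiouridine (s4U) alone (untreated, 3 libraries) or with 1.8 µM emetine (3 libraries), and 1 untreated and 1 emetine-treated library came from cells without s4U. For 2 h, cells received 250 µM s4U and no emetine, 1.8 µM emetine or 240 µM emetine (3 libraries each). The culture medium was replaced 2 h before emetine. In TimeLapse sequencing (TL-seq), s4U taken up by cells enters new RNA and is chemically recoded, so that reads from RNA made during the incubation carry T-to-C conversions (labeled reads), whereas RNA that existed before carries none (unlabeled reads).

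The transcription factor p53 activates genes that halt the cell cycle, repair DNA or trigger cell death, and several of its targets feed back on p53 itself. MDM2 is the ubiquitin ligase that marks p53 for destruction, MDM4 is its relative that binds p53 and masks its activation domain, and PPM1D encodes the phosphatase WIP1, which removes activating phosphates from p53 and from its kinases. CDKN1A encodes p21, an inhibitor of cyclin-dependent kinases, AEN encodes a nuclease that promotes apoptosis, and TP53INP1 and TP53INP2 encode related proteins with roles in the stress response and in autophagy. HEK-293T cells carry the SV40 large T antigen, which binds p53, and this limits the line as a model of p53 signaling. Many mRNAs of such regulators turn over quickly, and AU-rich elements in 3′ UTRs are among the sequences known to recruit decay factors.

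On GRCh38 (GENCODE 44), MDM2 lies at chr12:68808177-68845544, MDM4 at chr1:204516379-204558120, PPM1D at chr17:60600193-60666280, CDKN1A at chr6:36676460-36687337, AEN at chr15:88621337-88632281 and TP53INP2 at chr20:34704339-34713439, all on the plus strand. The canonical transcripts differed widely in length. MDM4 (10050 bases) and MDM2 (7490 bases) were longer than 95.6% and 88.9% of the 12732 tested genes that had a coding sequence, whereas CDKN1A (2117 bases) was longer than 25.1% of them. Most of the length lay in the 3′ UTR, which took 8438 bases in MDM4, 5695 in MDM2 and 4507 in TP53INP1. The pentamer ATTTA, the core of AU-rich elements, occurred 23 times in the 3′ UTR of MDM2, 19 times in MDM4, 14 times in TP53INP1, 5 times in PPM1D, 4 times in AEN, 3 times in CDKN1A and 1 time in TP53INP2. By comparison, 73.8% of tested genes with a 3′ UTR held at least 1, with a median of 2.

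The longer AU-rich nonamers TTATTTAAA, TTATTTAAT, TTATTTATA and TTATTTATT were searched on the sense strand, and each overlaps the pentamer. At least 1 was found in 6 of the 7 genes, all but TP53INP2, and in 22.4% of tested genes. This comparison was not adjusted for length, and a longer 3′ UTR offers more positions for a match. The 3′ UTRs of the 7 genes were longer than those of 53.9% (CDKN1A) to 98.0% (MDM4) of tested genes. Whether the matches act in these mRNAs was not tested. The windows from 5 of them are shown with the nonamer in capitals, because elements of this class are known to act in mRNA turnover, which is described later for these genes, and all are exonic 3′ UTR sequence on the plus strand of GRCh38. In PPM1D (chr17:60664780-60664808 and chr17:60664784-60664812) and in AEN (chr15:88631182-88631210 and chr15:88631186-88631214), the pair of matches overlapped. The MDM2 windows were at chr12:68841746-68841774 and chr12:68844762-68844790, the MDM4 windows at chr1:204549738-204549766 and chr1:204553778-204553806, and the CDKN1A window at chr6:36685964-36685992.
PPM1D, first: tgagtgtattTTATTTATTtattattttg
PPM1D, second: tgtattttatTTATTTATTattttgtttg
AEN, first: tgcctgacctTTATTTATTtattaacagc
AEN, second: tgacctttatTTATTTATTaacagcaggg
MDM2, first: aacagaattgTTATTTAAAaactaactgg
MDM2, second: tattttatttTTATTTATTttttgagacg
MDM4, first: aatcaatcctTTATTTAATtttatttcca
MDM4, second: gtatgcttttTTATTTAATgcttaaatca
CDKN1A: ggcattagaaTTATTTAAAcaaaaactag

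Promoter windows of 300 bases around RefSeq start sites (GRCh38.p14) were searched on both strands for a full p53 site, that is 2 half-sites of 10 bases separated by at most 1 base, with at most 2 mismatches and the C and G of each core intact. RefSeq entries matched 6 of the 7 genes, all but TP53INP1. A match was found in a window at the internal start site of MDM2 (chr12:68808767-68809066) and in the AEN window (chr15:88621090-88621389), each with 2 mismatches and no spacer, and none was found in the windows of MDM4, PPM1D, CDKN1A and TP53INP2. Of all 27305 genes with a promoter entry, 0.674% held such a match, and a window without one says only that the site is not within those 300 bases. The windows of MDM2, AEN and, as the most strongly raised gene without a match, PPM1D (chr17:60599943-60600242) are shown on the plus strand with the matched site in capitals.
MDM2, internal promoter: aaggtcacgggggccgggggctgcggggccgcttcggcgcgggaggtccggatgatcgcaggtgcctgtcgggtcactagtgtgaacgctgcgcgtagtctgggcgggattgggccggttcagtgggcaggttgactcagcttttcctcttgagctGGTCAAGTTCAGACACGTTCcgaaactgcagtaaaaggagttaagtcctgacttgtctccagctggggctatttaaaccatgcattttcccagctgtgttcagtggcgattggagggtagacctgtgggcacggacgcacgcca
AEN: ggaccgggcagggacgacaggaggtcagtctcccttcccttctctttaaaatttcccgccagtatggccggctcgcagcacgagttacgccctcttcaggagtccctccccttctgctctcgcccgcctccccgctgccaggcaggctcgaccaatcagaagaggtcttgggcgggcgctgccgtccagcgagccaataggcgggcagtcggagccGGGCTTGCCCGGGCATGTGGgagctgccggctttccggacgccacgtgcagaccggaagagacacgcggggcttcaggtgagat
PPM1D: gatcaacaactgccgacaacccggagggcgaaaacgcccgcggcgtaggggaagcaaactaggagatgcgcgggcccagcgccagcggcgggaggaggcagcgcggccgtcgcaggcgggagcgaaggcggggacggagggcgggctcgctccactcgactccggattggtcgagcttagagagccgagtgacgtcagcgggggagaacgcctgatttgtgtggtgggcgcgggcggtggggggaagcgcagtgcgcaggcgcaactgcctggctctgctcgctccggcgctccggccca

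The 8 libraries of the 1 h experiment held between 22246279 and 40018063 reads assigned to a gene, and each of the 7 genes had at least 104 reads in each of them. TP53INP1 was the most thinly covered, with 104 to 189 reads per library. Emetine replicate 3 stood apart from the others: over 13068 genes, the SD of its deviations from the group mean was 0.27 on the log2 scale, against 0.11 to 0.17 in the other libraries, and its deviations rose with transcript length (Spearman's rho across genes 0.724) where those of emetine replicates 1 and 2 fell (rho -0.626 and -0.628). Deviations of the 3 emetine libraries from their own mean cancel for each gene, so a rise in 1 of them is balanced by falls in the others. The values of replicates 1 and 2 thus do not show a length trend of their own. Because emetine replicate 3 stood apart, results that rest on it are also given without it. Of 8 markers expected in HEK-293T cells, 8 were above 1 CPM (counts scaled to library size), at means of 1.80 to 618 CPM in untreated cells. Of 8 markers of other cell types, 6 were below 1 CPM, 2 of them at 0. The collagen genes COL1A1 and COL3A1 were above 1 CPM, at up to 24.0 CPM.

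In the 3 untreated libraries, MDM2 was measured at 113, 115 and 112 CPM, AEN at 74.4, 80.2 and 75.0 CPM and MDM4 at 48.9, 47.1 and 55.3 CPM, in replicates 1 to 3 respectively. PPM1D was measured at 22.1, 23.1 and 22.0 CPM, CDKN1A at 19.7, 19.6 and 18.5 CPM, TP53INP2 at 18.5, 16.8 and 17.3 CPM and TP53INP1 at 4.16, 5.39 and 5.48 CPM. Reads per gene grow with transcript length, so genes were ranked by CPM per kilobase of canonical transcript. On this scale AEN was the most abundant at 24.9 ± 1.04 (SD, n = 3), followed by MDM2 at 15.1 ± 0.230 and CDKN1A at 9.10 ± 0.329. MDM4 (5.02 ± 0.430), PPM1D (4.70 ± 0.125) and TP53INP2 (4.25 ± 0.216) followed, and TP53INP1 was the least abundant at 0.893 ± 0.131. The libraries of MDM4 and PPM1D overlapped in this order, and no other neighbors did. In emetine-treated cells PPM1D reached 8.10 ± 0.960 CPM per kilobase, above MDM4 at 5.99 ± 0.688 and overlapping CDKN1A at 7.99 ± 0.813.

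Fraction new, the share of a gene's reads that came from RNA made during the hour, was estimated from the T-to-C conversions of its reads. Without s4U, between 0% and 0.264% of the reads of the 7 genes carried at least 2 conversions, and for the smallest number of reads, TP53INP1 in untreated cells, 0 of 104 reads allows a share of up to 2.88%. With s4U, the share was between 6.01% (TP53INP2 in untreated replicate 3) and 46.5% (PPM1D in untreated replicate 3).

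The 7 mRNAs differed in turnover in untreated cells. PPM1D had the highest fraction new, at 36.0%, 53.3% and 57.4%, with a mean of 48.9% ± 11.3 (SD, n = 3) that exceeded 94.8% of the 10763 genes tested. AEN followed at 34.1%, 44.1% and 46.4% (mean 41.5% ± 6.53), above 92.4% of genes, and MDM4 at 24.6%, 31.0% and 32.1% (mean 29.2% ± 4.02), above 84.6%. These 3 genes included both of those whose level rose with emetine.

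TP53INP1 varied most between libraries, at 10.0%, 27.7% and 40.3% (mean 26.0% ± 15.2). MDM2 was at 17.5%, 21.0% and 24.5% (mean 21.0% ± 3.52) and CDKN1A at 16.3%, 20.3% and 25.0% (mean 20.5% ± 4.33), above 73.8% and 73.0% of genes. TP53INP2 had the lowest fraction new, at 8.30%, 11.7% and 8.17% (mean 9.41% ± 2.03), and was the only one of the 7 below the median gene (12.2%). In the order of the means (PPM1D, AEN, MDM4, TP53INP1, MDM2, CDKN1A, TP53INP2), AEN and MDM4 did not overlap, nor did CDKN1A and TP53INP2, and the libraries of all other neighbors did. Compared within the same library, PPM1D was above AEN in every untreated library. The other overlapping neighbors changed order between libraries. The order of the untreated libraries was shared by the whole transcriptome: in untreated replicates 1 to 3 the median gene had a fraction new of 9.26%, 12.3% and 14.7%, against 10.7%, 11.0% and 10.3% with emetine.

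Under a steady state with labeling from the start of the hour, these fractions correspond to half-lives of 93.0, 54.7 and 48.7 min for PPM1D (mean 65.5 ± 24.0 min, SD, n = 3) and of 99.8, 71.5 and 66.7 min for AEN (mean 79.3 ± 17.8 min). MDM4 had a half-life of 122 ± 21.6 min, MDM2 of 180 ± 34.4 min and CDKN1A of 187 ± 44.4 min, and that of TP53INP2 was 434 ± 87.3 min. For TP53INP1 the 3 libraries gave 394, 128 and 80.6 min, so its half-life was not well determined at this depth. Within the p53 inhibitors, PPM1D mRNA therefore had a mean half-life below those of MDM4 and MDM2, and its slowest library (93.0 min) was below the fastest library of MDM4 (108 min) and of MDM2 (148 min).

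With emetine for 1 h, the level of PPM1D and AEN rose, and no change in the other 5 genes passed the test. Of all 13776 genes tested, 2.64% were raised by the same call (edgeR's quasi-likelihood test, Benjamini-Hochberg adjusted p under 0.05), against 2 of the 7 genes here. None of the 7 was lowered by edgeR (0.0436% of all genes), none at an unadjusted p under 0.05 (6.95%) and none by DESeq2 (1.13%). PPM1D was at 34.9, 37.3 and 43.7 CPM in emetine-treated cells, all above the untreated values of 22.0 to 23.1 CPM. The log2 change was 0.78 (SE 0.11, adjusted p = 0.0117 by edgeR), or 1.72-fold. AEN was at 99.2, 103 and 113 CPM, above the untreated values of 74.4 to 80.2 CPM, and its log2 change was 0.46 (SE 0.09, adjusted p = 0.0337 by edgeR), or 1.37-fold.

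**Figure D1:**
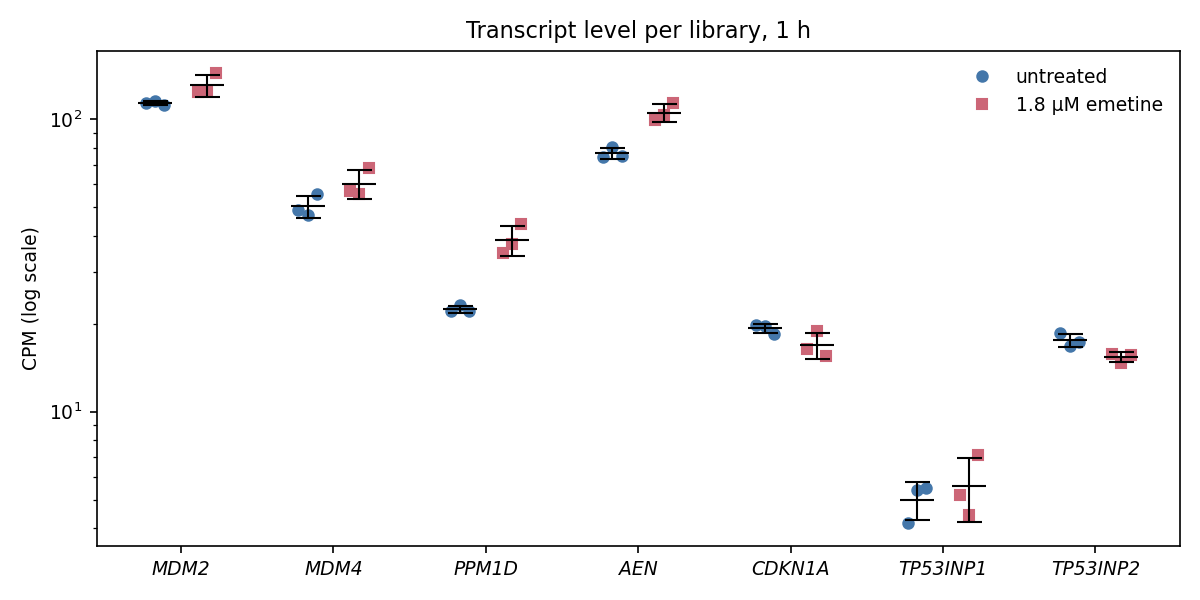
Transcript level of the 7 p53 pathway genes in CPM (log axis) in the 3 untreated and 3 emetine-treated 1 h libraries with s4U, with the mean and SD in black. The emetine libraries of PPM1D (34.9 to 43.7 CPM) and AEN (99.2 to 113 CPM) lie above all their untreated libraries, and those of CDKN1A and TP53INP1 overlap theirs.

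Without emetine replicate 3, the library that stood apart, the log2 changes were 0.69 for PPM1D (adjusted p = 5.59e-05, edgeR) and 0.41 for AEN (adjusted p = 0.000622, edgeR), in a fit that raised 10.1% of all genes. Both calls were lost when any of the untreated libraries was left out, with log2 changes of 0.77 to 0.81 for PPM1D (adjusted p from 0.0912 to 0.0998, edgeR) and 0.44 to 0.49 for AEN (adjusted p from 0.149 to 0.201, edgeR), and between 0.0294% and 0.132% of all genes were raised in these fits. The AEN call was also lost without emetine replicate 1 (0.50, adjusted p = 0.0664, edgeR) or without emetine replicate 2 (0.47, adjusted p = 0.0631, edgeR).

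Among the other inhibitors of p53, MDM2 was at 124, 124 and 144 CPM and MDM4 at 56.7, 55.6 and 68.1 CPM in emetine-treated cells. For both genes every emetine-treated library lay above every untreated one, and emetine replicate 3 was the highest. This separation was seen in 4 of the 7 genes, PPM1D and AEN included, and in 19.5% of all genes tested. The log2 change was 0.20 (SE 0.09) for MDM2 and 0.25 (SE 0.11) for MDM4, and neither passed the test (adjusted p = 0.230 and 0.225, edgeR). Without emetine replicate 3 the changes were 0.13 and 0.16, and after a smooth dependence on length and GC content had been subtracted from each library they were -0.03 and 0.02. Both are long transcripts, and the part of the length trend in their values was not tested beyond this.

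Among the effectors, CDKN1A was at 16.4, 18.8 and 15.5 CPM with emetine and overlapped the untreated libraries, with a log2 change of -0.19 (SE 0.11, adjusted p = 0.341, edgeR). TP53INP2 was at 15.8, 14.7 and 15.7 CPM, below every untreated library, a separation seen in 15.2% of all genes, and its log2 change of -0.19 (SE 0.11, adjusted p = 0.308, edgeR) did not pass the test. With the length and GC trend removed, its change was -0.27 (unadjusted p = 0.0183, adjusted p = 0.0971, edgeR). In that fit 16% of all genes were lowered at an unadjusted p under 0.05. TP53INP1 (chr8:94925972-94949378, minus strand) was at 5.20, 4.42 and 7.09 CPM and overlapped the untreated libraries, with a log2 change of 0.15 (SE 0.21, adjusted p = 0.687, edgeR). For TP53INP1 the sign depended on emetine replicate 3, without which the log2 change was -0.06.

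Reads from the spike-in RNA in the 1 h libraries gave another scale, on which the median change over all genes was 0.71 rather than 0.03. Spike-in reads made up 0.667%, 0.480% and 0.728% of reads in untreated replicates 1 to 3, and 0.304%, 0.666% and 0.408% with emetine. Emetine replicate 2 thus lay within the untreated range. Without s4U the share went the other way, at 0.501% untreated and 0.580% with emetine. The cause of this spread was not tested. On the spike-in scale the log2 changes were positive for all 7 genes, from 0.46 for CDKN1A to 1.45 for PPM1D. Their SEs were 0.46 to 0.50, and none passed the test. Relative to the shift of the median gene, PPM1D was at 0.74, AEN at 0.42, MDM4 at 0.25, MDM2 at 0.18, TP53INP1 at 0.15, TP53INP2 at -0.20 and CDKN1A at -0.25. The negative sign of CDKN1A and TP53INP2 thus held relative to other genes and not on the spike-in scale.

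Fraction new fell with emetine in AEN, and its change did not pass the test in the other 6 genes. Of all 10763 genes tested, 4.83% were lowered by this call (limma on the logit of the fraction new, adjusted p under 0.05), against 1 of the 7. AEN was at 26.6%, 24.5% and 27.2% with emetine, below the untreated values of 34.1% to 46.4%. The change was -0.69 on the logit scale (SE 0.22, adjusted p = 0.0460, limma), where the median over all genes was -0.16. The call was close to the threshold and was lost when untreated replicate 2 or 3 or any emetine library was left out (changes from -0.72 to -0.59, adjusted p from 0.192 to 0.297, limma). It was also lost at a minimum of 50 reads per library (adjusted p = 0.0993, limma). There the unadjusted p was 0.00455, against 0.00215 in the main fit (limma). Without untreated replicate 1, the library with the lowest fraction new, the change was -0.85 (adjusted p = 0.00317, limma), where 23.4% of all genes were lowered and the median change was -0.31.

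**Figure D2:**
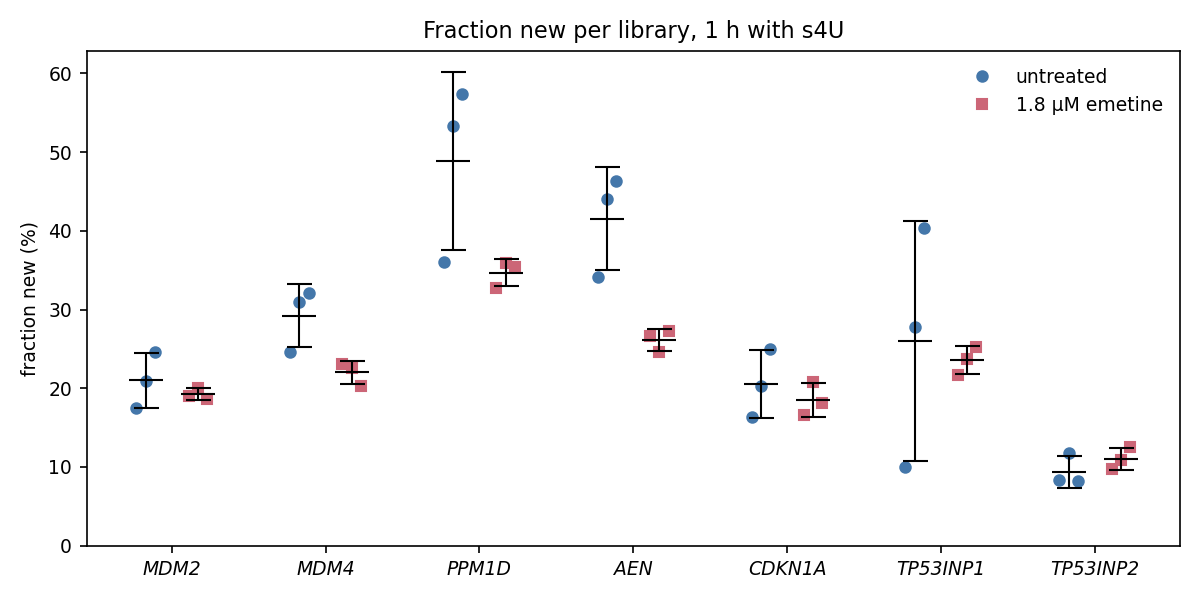
Fraction new (percent of reads from RNA made during the hour) of the 7 genes in each 1 h library with s4U, with the mean and SD in black. The emetine-treated libraries of AEN (24.5% to 27.2%), PPM1D (32.8% to 35.9%) and MDM4 (20.3% to 23.1%) lie below all untreated libraries of the same gene.

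PPM1D was at 32.8%, 35.9% and 35.4% with emetine, below its untreated values of 36.0% to 57.4%, with a logit change of -0.59 (SE 0.23, adjusted p = 0.142, limma). MDM4 was at 23.1%, 22.6% and 20.3%, below its untreated values of 24.6% to 32.1%, with a change of -0.38 (SE 0.21, adjusted p = 0.380, limma). Non-overlapping, lower values with emetine were thus found in 3 of the 7 genes, AEN, PPM1D and MDM4, and in 16.8% of all genes tested. Without untreated replicate 1, both PPM1D (-0.85, adjusted p = 0.00369, limma) and MDM4 (-0.49, adjusted p = 0.0214, limma) passed the test, as did the 23.4% of all genes lowered in that fit.

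In the other 4 genes the groups overlapped. MDM2 was at 19.1%, 20.04% and 18.6% with emetine (change -0.10, SE 0.21, adjusted p = 0.888, limma) and CDKN1A at 16.6%, 20.8% and 18.1% (change -0.12, SE 0.21, adjusted p = 0.860, limma). TP53INP1 was at 21.7%, 23.7% and 25.2% (change 0.00, SE 0.46), and TP53INP2 at 9.74%, 10.9% and 12.5% (change 0.19, SE 0.21, adjusted p = 0.756, limma). With libraries centered on their median gene, the change of AEN was -0.57 (adjusted p = 0.0146, limma), and those of MDM2 and CDKN1A were 0.02 and 0.01.

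The level and the fraction new of each gene were combined into the abundance of labeled reads, from RNA made during the hour, and of unlabeled reads, from RNA that existed before it. Unlabeled reads of PPM1D and AEN rose. With all 6 libraries, no change in labeled reads passed the test in any of the 7 genes (limma, 0 also at an unadjusted p under 0.05). By comparison, 7.3% of the 10763 genes were raised in unlabeled reads and 0.892% changed in labeled reads (limma, adjusted p under 0.05). At an unadjusted p under 0.05, 12.2% of all genes changed in labeled reads.

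Unlabeled PPM1D reads were at 14.1, 10.8 and 9.39 CPM in untreated cells and at 23.4, 23.9 and 28.2 CPM with emetine, and no emetine-treated library overlapped the untreated ones. The change on the log2(CPM + 0.5) scale was 1.12 (SE 0.16, adjusted p = 0.00520, limma), or 2.17-fold. Labeled PPM1D reads were at 7.96, 12.3 and 12.7 CPM in untreated cells and at 11.4, 13.4 and 15.5 CPM with emetine, and these overlapped, with a change of 0.30 (SE 0.24, adjusted p = 0.676, limma). With libraries centered on their median gene, the change in labeled reads was 0.43 (unadjusted p = 0.00570, adjusted p = 0.0822, limma). In that fit 8.59% of all genes were raised in labeled reads at an unadjusted p under 0.05.

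Unlabeled AEN reads were at 49.03, 44.8 and 40.2 CPM in untreated cells and at 72.8, 77.8 and 82.5 CPM with emetine, again without overlap. The log2 change was 0.79 (SE 0.11, adjusted p = 0.00332, limma), or 1.73-fold. Labeled AEN reads were at 25.4, 35.4 and 34.8 CPM and at 26.4, 25.3 and 30.8 CPM, and these overlapped (change -0.20, SE 0.22, adjusted p = 0.801, limma). The increase in unlabeled reads passed the test in all 12 alternatives run for AEN, with changes of 0.69 to 0.86, and in all 11 that could be run for PPM1D, with changes of 0.99 to 1.28. Spike-in scaling and removal of the length and GC trend were run for level only and were not among these alternatives.

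**Figure D3:**
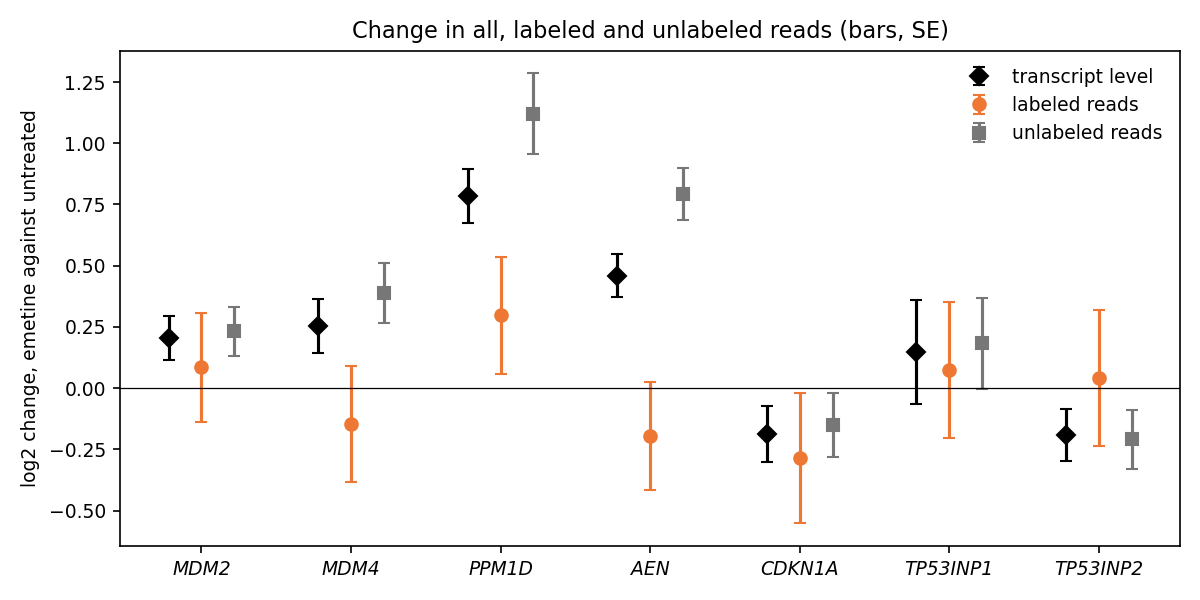
Log2 change with emetine in all reads of a gene (edgeR), in labeled reads and in unlabeled reads (both limma), for the 7 genes, with bars of 1 SE. PPM1D and AEN have the largest increases in unlabeled reads among the 7 (1.12 and 0.79), and the bars of their labeled reads lie lower, at 0.30 and -0.20.

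Unlabeled MDM4 reads were at 36.9, 32.5 and 37.6 CPM in untreated cells and at 43.6, 43.1 and 54.3 CPM with emetine, and unlabeled MDM2 reads were at 93.6, 91.0 and 84.3 CPM and at 100.3, 99.5 and 117 CPM. Both were separated, as were PPM1D and AEN and 23.9% of all genes. The log2 changes of 0.39 (SE 0.12, adjusted p = 0.0991, limma) and 0.23 (SE 0.10, adjusted p = 0.184, limma) did not pass the test. Without emetine replicate 3, the change of MDM4 was smaller, at 0.28, and passed it (adjusted p = 0.0439, limma), in a fit that raised 13.6% of all genes, and that of MDM2 was 0.16 (adjusted p = 0.125, limma). In the remaining effectors, the changes of unlabeled reads were -0.15 for CDKN1A (SE 0.13), 0.18 for TP53INP1 (SE 0.19) and -0.21 for TP53INP2 (SE 0.12). Unlabeled TP53INP2 reads were at 13.1 to 14.3 CPM with emetine, below the untreated values of 14.8 to 17.0 CPM. The share of all genes separated downward was not counted, and the change did not pass the test (adjusted p = 0.278, limma).

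**Figure D4:**
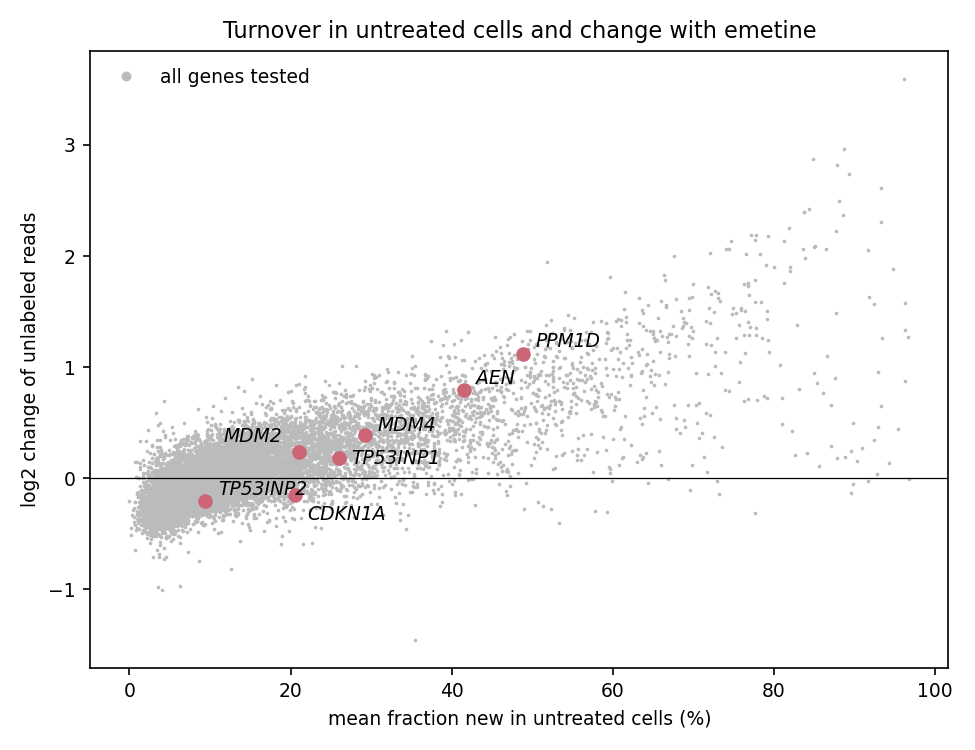
Mean fraction new in untreated cells (percent) against the log2 change of unlabeled reads with emetine, for the 10763 genes tested (gray) and the 7 genes described (red). PPM1D (48.9%, 1.12) and AEN (41.5%, 0.79) have the highest values of the 7 on both axes and TP53INP2 (9.41%, -0.21) the lowest, and the axes share the untreated libraries.

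Set against their turnover in untreated cells, the 7 genes lay in the order PPM1D, AEN and MDM4 at the top of both measures, as the plot of turnover and change shows. The changes of unlabeled reads were above those of 97.9% of genes for PPM1D, 95.3% for AEN and 83.3% for MDM4, and above those of 71.8% for MDM2, 67.1% for TP53INP1, 24.5% for CDKN1A and 17.4% for TP53INP2. MDM2 and CDKN1A had nearly the same fraction new in untreated cells (21.0% and 20.5%) and changes of 0.23 and -0.15, whose difference was not tested.

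In cells without s4U, 1 library of each kind allowed a comparison of the libraries without a replicate check. PPM1D was at 30.1 CPM untreated and 42.0 CPM with emetine, a log2 ratio of 0.48 (exact 95% interval 0.35 to 0.61, counting error only), and AEN was at 80.0 and 100.8 CPM, a ratio of 0.33 (0.25 to 0.42). These were above the ratios of 91.3% and 85.4% of genes. MDM4 was at 51.9 and 55.9 CPM (0.11, interval 0.00 to 0.21) and TP53INP1 at 4.41 and 5.03 CPM (0.19, interval -0.17 to 0.56), above the ratios of 65.5% and 74.6% of genes. Over all 13776 genes, the 5th and 95th percentiles of this ratio were -0.50 and 0.65, a range that held every one of the genes described.

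The libraries without s4U gave lower values with emetine for the other 3 genes. MDM2 was at 127 CPM untreated and 116 CPM with emetine, a ratio of -0.13 (interval -0.20 to -0.06), which is opposite in sign to each of the 3 libraries with s4U (0.13 to 0.34 against the untreated mean). CDKN1A was at 23.2 and 19.3 CPM (-0.27, interval -0.44 to -0.10) and TP53INP2 at 16.1 and 14.9 CPM (-0.11, interval -0.31 to 0.08). The ratios of MDM2, CDKN1A and TP53INP2 were above those of 28.1%, 13.9% and 30.7% of genes. On a common scaling of all 8 libraries, the mean of untreated cells with s4U differed from untreated cells without it by -0.43 for PPM1D, -0.27 for CDKN1A and -0.16 for MDM2 on the log2 scale, by -0.06 for AEN and -0.04 for MDM4, and by 0.13 for TP53INP2 and 0.18 for TP53INP1.

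**Figure D5:**
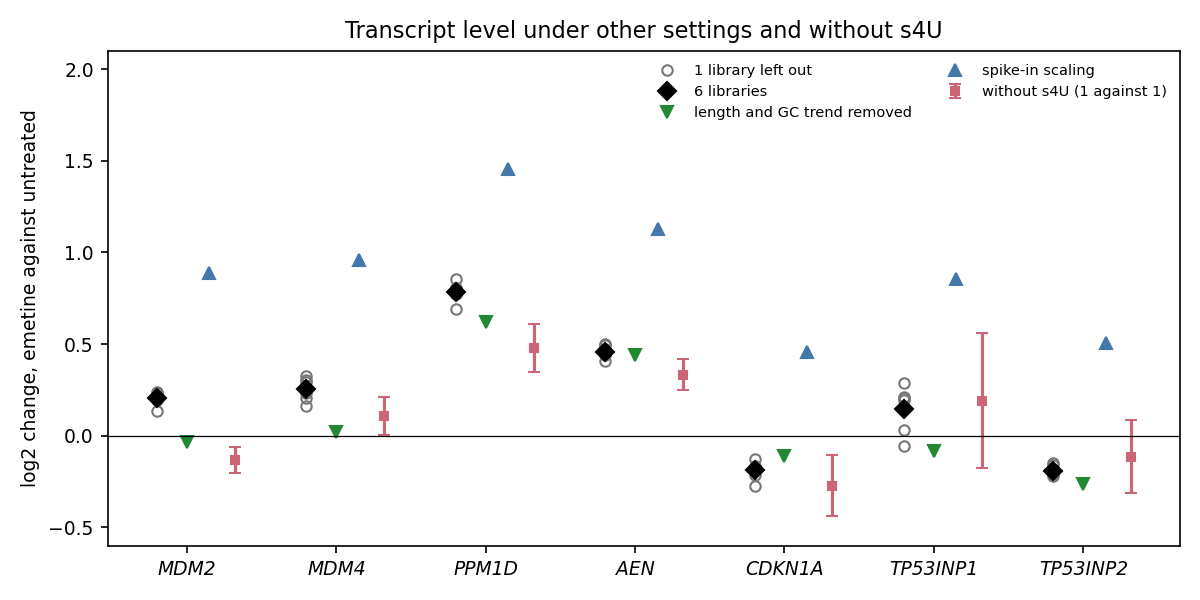
Log2 change in level with emetine for the 7 genes with all 6 libraries (black), with each library left out (open circles), with the length and GC trend removed (green), with spike-in scaling (blue) and in the 2 libraries without s4U (red, with exact 95% counting intervals). PPM1D and AEN are above 0 in every case, and MDM2 is below 0 with the trend removed (-0.03) and without s4U (-0.13).

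In the 2 h experiment, the authors' mean of normalized counts over all libraries was used as a level only. MDM2 had the highest of the 6 listed genes at 7519, followed by MDM4 at 2775, PPM1D at 1108, AEN at 1059, TP53INP1 at 221 and CDKN1A at 176. These values are not per length, and they were above those of 97.2%, 84.9%, 59.2%, 57.7%, 9.52% and 4.33% of the 9982 genes listed, respectively. The values pool untreated and treated cells and total-RNA libraries, so they were not compared with the 1 h levels.

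Beyond the 7 genes, 47 further p53 targets and 36 further regulators of p53 were examined as lists. Of 40 targets tested for level, 2 were raised and none lowered by edgeR (10 and 2 at an unadjusted p under 0.05, beside 14.9% and 6.95% of all genes), beside 2.64% of all genes raised, and the median change was 0.16 against 0.03 over all genes. GADD45A, a growth arrest gene, was at 8.82, 7.56 and 9.63 CPM untreated and at 24.7, 20.5 and 15.8 CPM with emetine (log2 change 1.24, SE 0.18, adjusted p = 0.0134, edgeR). PMAIP1, which encodes the pro-apoptotic protein NOXA, was at 42.8, 37.7 and 49.7 CPM and at 77.6, 69.8 and 94.99 CPM (change 0.90, SE 0.14, adjusted p = 0.0163, edgeR). Both calls were lost when any untreated library was left out (adjusted p from 0.0731 to 0.118, edgeR), and 10 of the 40 targets were raised without emetine replicate 3, beside 10.1% of all genes. Of 35 regulators tested, none was raised or lowered by edgeR with all 6 libraries (6 and 1 at an unadjusted p under 0.05), 1 was raised by DESeq2 (5.95% of all genes) and 3 were raised without emetine replicate 3 (10.1% of all genes).

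Fraction new was lowered in 3 and raised in 1 of 34 targets tested, beside 4.83% of all genes lowered and 0.214% raised. The median change was -0.21 against -0.16. It fell in GADD45A from 59.5%, 81.7% and 81.0% to 48.2%, 43.97% and 51.5% (logit change -1.19, SE 0.26, adjusted p = 0.00232, limma). In PLK2, which encodes a polo-like kinase, it fell from 73.0%, 74.3% and 81.9% to 52.3%, 56.9% and 62.9% (-0.89, SE 0.26, adjusted p = 0.0244, limma), and in PHLDA3, an inhibitor of AKT signaling, from 22.0%, 31.8% and 52.3% to 15.998%, 16.7% and 19.6% (-0.91, SE 0.25, adjusted p = 0.0361, limma). It rose in TP53I3, an oxidoreductase gene, from 5.31%, 3.78% and 3.03% to 9.55%, 8.81% and 6.30% (0.77, SE 0.23, adjusted p = 0.0283, limma). Each of these 4 calls was lost when at least 1 of the 6 libraries was left out. None of 34 regulators was called for fraction new (limma). At an unadjusted p under 0.05, 7 were lowered, beside 15.4% of all genes, and without untreated replicate 1, 11 were lowered by the call, beside 23.4% of all genes.

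Among the targets, 3 of 34 were raised in unlabeled reads (GADD45A, PLK2 and PMAIP1), beside 7.3% of all genes, with a median change of 0.21 against 0.04. PMAIP1 also rose in labeled reads (change 0.89, SE 0.22, adjusted p = 0.0172, limma), which none of the 7 genes did, and its fraction new of 29.4% to 44.1% untreated and 35.8% to 39.2% with emetine overlapped. SCO2, named after its value was seen, was lowered in labeled reads (change -0.83, SE 0.22, adjusted p = 0.0287, limma). Of the 34 targets, 1 was thus raised and 1 lowered in labeled reads, beside 0.26% and 0.632% of all genes. None of the 34 regulators was raised in unlabeled reads by limma with all 6 libraries (9 at an unadjusted p under 0.05, beside 19.4% of all genes), and 5 were without emetine replicate 3, beside 13.6% of all genes.

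For each gene, the genes with the most similar values were found over 12 values, the log2 labeled and unlabeled CPM in 6 libraries, each centered on its untreated mean. Nearest to PPM1D were FAM193A (Euclidean distance 0.26), PALB2 (0.35) and TRAF6 (0.43), where the median gene was at 2.17. Nearest to AEN were ZNF107 (0.26), ZKSCAN5 (0.30) and MOCS3 (0.31), with the median gene at 1.53. MDM2 was nearest to TLK1 (0.17), FBXO11 (0.21) and FBXL20 (0.21), and MDM4 to RBM33 (0.20), MEIS2 (0.25) and WDR81 (0.28). CDKN1A was nearest to MRPL49 (0.26), PSMD3 (0.28) and HADHA (0.28), TP53INP1 to PREPL (0.37), SLC9A7 (0.41) and RAP2A (0.46), and TP53INP2 to ADCYAP1R1 (0.29), C8orf88 (0.34) and P4HA2 (0.35). No gene was nearest to more than 1 of the 7.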

How the data were processed

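The 7 genes, the gene lists and the tests were chosen with earlier results of these data known. Reads of the 1 h libraries were trimmed (cutadapt), aligned to hg38 with hisat-3n and tabulated by T positions and conversions with bam2bakR by the authors. Their deposited file gives whole, unnormalized read counts for each library, gene and number of conversions. For 2 h, htseq-count and DESeq2 with spike-in size factors were used, and of these deposited tables only the mean normalized count per gene was taken (a signal averaged by the authors over all libraries, identical in both tables). Their fold changes, standard errors and p-values were not used, nor was the table of spike-in size factors, and the 2 h doses were not tested here.

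Reads were summed per gene. Of all reads, 81.1% to 82.3% fell in 1 gene, 16.05% to 17.2% in none, 0.976% to 1.09% in several and 0.304% to 0.728% in spike-ins, and only gene reads entered library sizes. Groups follow the labels, and 0 columns of unmapped samples were present. The 3 untreated and 3 emetine libraries with s4U were compared with edgeR 4.0.16 under R 4.3.3 (TMM, quasi-likelihood) over 13776 genes having over 100 reads in total. Fraction new was the maximum-likelihood share of new reads in a binomial mixture of old and new reads (Python 3.11.15 with scipy 1.17.1, numpy 2.4.6 and pandas 2.3.3). Background rates per T (0.0504% and 0.0521%) came from the libraries without s4U, and new-read rates (8.49% to 9.53%) were fitted per library. Its logit, bounded at 0.001 and 0.999, and log2(CPM + 0.5) of labeled and unlabeled reads went into limma 3.58.1 (trend, robust), where 10763 genes reached 100 reads in every library. bakR was not run. A call is a Benjamini-Hochberg adjusted p under 0.05 over all genes tested. An exact permutation test of 3 against 3 cannot give a p under 0.1. The labels do not say whether replicates are separate cultures, so p-values measure the spread between these libraries. No molecular identifiers are described, so intervals (95%) and limits of a count of 0 (3 reads) cover counting error only.

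Both tests were tested on simulated data: for a log2 change of 1 in level among 13698 genes, 99.5% of changed genes were recovered with 2.45% of calls false, and for a logit change of 1 in fraction new among 10763 genes, 47.5% were recovered with 4.04% false. The simulated noise was independent between genes, without a length trend or a shift shared by the genes of a library. The shares of false calls therefore do not cover such trends and shifts in the real libraries. Of 19222 genes, 17147 matched GENCODE 44 by symbol and 1135 by an older symbol. The genes named are the 7, up to 3 genes per direction of level and of fraction new from the target and regulator lists with the smallest p among those called, and the 3 nearest genes to each of the 7. Alternatives covered size factors, DESeq2 1.42.0, count filters, spike-in scaling, removal of a trend on length and GC content (mgcv 1.9.3), read minimums of 50 and 500, centering, 1 new-read rate, weights, the share of reads with at least 2 conversions, pseudocounts of 0.1 and 2 CPM, the replicate number as a block, and leaving out each library. Figures were drawn with matplotlib 3.10.9.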

Additional observations from a re-analysis of the deposited data

Results flagged for a closer look

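MDM2 differed in sign between cells with and without s4U. With s4U its level was higher in 3 of 3 emetine libraries, by 0.13 to 0.34 on the log2 scale against the untreated mean. Without s4U it was lower, at -0.13 (exact 95% interval -0.20 to -0.06, counting error only, 1 library against 1). This ratio was above that of 28.1% of genes, and the 5th and 95th percentiles over all genes were -0.50 and 0.65. The difference between these effects was not tested. The change with s4U did not pass the test (adjusted p = 0.230, edgeR), and no group held enough libraries for a search for outlying values.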

How the results depend on the processing

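The number of the 7 genes raised in level (2 with all libraries) was 0 with spike-in scaling, 0 with the replicate block, and between 0 and 2 when 1 library was left out. The number lowered in fraction new (1) was 0 at a minimum of 50 reads and between 0 and 3 when 1 library was left out, and the number raised in unlabeled reads (2) was 1 at a minimum of 500 reads, where PPM1D had too few reads to be tested. Some of these fits used fewer samples or tested other genes, and the cause of the losses was not tested.

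Same-numbered libraries had deviations that correlated at 0.09, 0.01 and -0.14 in level and at 0.06, 0.00 and 0.02 in fraction new. Not every library correlated best with its own number. Deviations were taken from means of 3 libraries, and in level those of emetine replicate 3 were the largest. The correlations therefore cannot decide whether replicate numbers pair the samples. With the replicate block, PPM1D changed by 0.78 (adjusted p = 0.0510, edgeR) and AEN by 0.46 (adjusted p = 0.0983, edgeR) in level, and raised genes numbered 75 rather than 363. The blocked value of AEN in fraction new was -0.69 (adjusted p = 0.0345, limma), and the block changed no other call of the 7 genes. It lowered genes raised in unlabeled reads from 786 to 350.

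Signs turned for several values that were not called with all 6 libraries. In level these were CDKN1A (0.46), TP53INP2 (0.51) and TP53I3 (0.41) with spike-in scaling, MDM2 (-0.032, and -0.034 with the block) and TP53INP1 (-0.0818, and -0.0824 with the block) with the length and GC trend removed, and with 1 library left out TP53INP1 (-0.055 to 0.29) and PHLDA3 (-0.044 to 0.44, the latter called, without emetine replicate 3, at adjusted p = 0.0460, edgeR). In fraction new they were MDM2 (0.024) and CDKN1A (0.0063) with centering, TP53INP1 (-0.015) with weights and PMAIP1 (-0.037) from reads with at least 2 conversions. With 1 library left out, fraction new ranged from -0.21 to 0.0034 for MDM2, -0.25 to 0.014 for CDKN1A, -0.50 to 0.40 for TP53INP1 and -0.18 to 0.14 for PMAIP1, and labeled reads from -0.037 to 0.19 for MDM2, -0.37 to 0.41 for TP53INP1 and -0.042 to 0.15 for TP53INP2.

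Of the p53 targets, 2 were raised in level, against 4 by DESeq2, 1 with spike-in scaling, 5 with the trend removed, 1 with the block, 4 with both and 0 to 10 with 1 library left out. Lowered in fraction new were 3, against 1 at 50 reads, 0 at 500 reads, 5 with centering, 6 with weights and 0 to 11 with 1 library left out. Raised in unlabeled reads were 3, against 1 at 500 reads and 2 to 10 with 1 library left out. Of the regulators, 0 were called in each of these, against 1 raised in level by DESeq2, 3 lowered in fraction new with centering and 2 with weights, and with 1 library left out 0 to 3 in level, 0 to 11 in fraction new and 0 to 5 in unlabeled reads.

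Over all genes, 363 were raised and 6 lowered in level, against 820 and 156 by DESeq2, 60 and 0 with spike-in scaling, 828 and 545 with the trend removed, and 4 to 1367 raised with 1 library left out. With centering, 126 rose and 748 fell in fraction new (23 and 520 without) and 183 and 251 in labeled reads (28 and 68 without). TP53INP1, at 104 to 189 reads per library, is limited by depth, and half-lives moved by less than 1 SD with 1 new-read rate for all libraries.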
